A study of Mus musculus with 32 samples.

Results

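Type 1 vomeronasal receptors are the genes whose symbols begin with Vmn1r. They were taken by symbol from the RefSeq annotation of GRCm38.p6, among protein-coding genes on the 19 autosomes. The rule found 231 receptors, of which 229 had a position on an assembled chromosome, out of 20558 placed autosomal protein-coding genes. The other two, Vmn1r186 and Vmn1r187, had no such position and were not analysed here. The remaining 20329 genes served as background.

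The study profiled histone marks in mouse oocytes from ovaries by CUT&Tag, an assay that tethers a transposase to a mark through an antibody, so that nearby DNA is cut and sequenced. It held 32 samples in 16 groups of 2, and 1 list of peaks (enriched regions) stood for each group, 10 for H3K27me3 and 6 for H2AK119ub. Wild-type (WT) oocytes were taken shortly before birth (E18.5), on day 1 after birth (P1), as non-growing oocytes on day 6 (P6) and as growing oocytes on day 7 (P7), with both marks at each stage. Conditional knockouts (cKO) and their controls all carried Ddx4-Cre, a recombinase driven in germ cells, so other ovarian cells kept their floxed alleles. The PRC2 control (PRC2ctrl) was EedF/+ and the PRC2cKO was EedF/-, where F is a floxed allele, and both marks were profiled in them at P6. The PRC1 control (PRC1ctrl) was Ring1-/- with Rnf2F/+, so it lacked Ring1 as well, and H3K27me3 was profiled in it and in the PRC1cKO at P6 and P7. In the label of the PRC1cKO the floxed allele is given as Ring1 (Ring1F/-), whereas its control has Rnf2 there, so which gene was floxed in that group is not settled. Because each group had 1 list, no difference below has a replicate check and none was tested. A list made from many oocytes cannot tell fewer oocytes with a mark from less of the mark in each oocyte.

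Type 1 vomeronasal receptors are G protein-coupled receptors of sensory neurons in the vomeronasal organ, where they detect pheromones and other social odours. Each neuron expresses a single receptor gene or very few, and the receptors signal through the G protein subunit Gnai2 and the channel Trpc2. The genes stand in large clusters of recent duplicates and are not known to act in oocytes. H3K27me3 is set by Polycomb repressive complex 2 (PRC2), whose core subunit is Eed, and H2AK119ub by Polycomb repressive complex 1 (PRC1), whose catalytic subunits are Ring1 and Rnf2. Both are found at silent developmental genes, chiefly where CpG dinucleotides are dense.

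The receptor genes were short, with a median span of 924 bp (870 to 33695 bp), and their promoters were poor in CpG. Promoters of 300 bases, from 250 before to 50 after the RefSeq start, were given for 206 of the 229 receptors in the RefSeq table for GRCm38.p6. The other 23 receptors had no entry. A median receptor promoter held 1 CpG (0 to 6), against 14 in 19879 promoters of other genes. At most 3 CpG stood in 94.7% of receptor promoters and in 22.3% of the others. The 4 promoters below show the gene marked in every list (Vmn1r48), the gene with the widest peaks (Vmn1r57), the receptor promoter with the most CpG (Vmn1r54), and 1 of the near-identical copies on chromosome 7 that no list marked (Vmn1r93). They are written 5′ to 3′ on the gene's own strand with each CpG in capitals, at chr6:90036792-90037091 (minus strand), chr7:5220228-5220527 (plus), chr6:90268856-90269155 (plus) and chr7:20139039-20139338 (minus).
Vmn1r48: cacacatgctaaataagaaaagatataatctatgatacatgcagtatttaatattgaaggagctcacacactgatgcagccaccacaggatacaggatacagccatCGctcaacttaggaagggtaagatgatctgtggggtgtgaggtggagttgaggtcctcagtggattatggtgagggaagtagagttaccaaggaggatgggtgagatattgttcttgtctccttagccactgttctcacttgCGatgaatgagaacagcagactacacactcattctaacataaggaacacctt
Vmn1r57: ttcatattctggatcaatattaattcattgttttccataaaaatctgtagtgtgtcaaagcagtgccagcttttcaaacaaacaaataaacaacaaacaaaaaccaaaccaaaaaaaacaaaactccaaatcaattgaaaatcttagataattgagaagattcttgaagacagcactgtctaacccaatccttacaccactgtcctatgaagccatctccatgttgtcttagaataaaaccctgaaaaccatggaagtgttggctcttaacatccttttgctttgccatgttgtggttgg
Vmn1r54: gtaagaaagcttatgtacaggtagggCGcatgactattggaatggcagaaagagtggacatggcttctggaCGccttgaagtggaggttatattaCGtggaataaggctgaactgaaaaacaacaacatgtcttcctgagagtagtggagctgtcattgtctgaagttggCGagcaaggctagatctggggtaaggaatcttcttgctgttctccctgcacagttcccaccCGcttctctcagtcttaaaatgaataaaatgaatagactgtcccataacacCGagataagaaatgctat
Vmn1r93: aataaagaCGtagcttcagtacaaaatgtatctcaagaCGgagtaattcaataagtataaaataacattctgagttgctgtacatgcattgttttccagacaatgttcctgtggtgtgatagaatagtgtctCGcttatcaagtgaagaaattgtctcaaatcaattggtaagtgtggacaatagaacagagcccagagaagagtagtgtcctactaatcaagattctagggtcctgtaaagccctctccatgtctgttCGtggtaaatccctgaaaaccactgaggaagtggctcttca

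The Vmn1r48 promoter held 2 CpG, that of Vmn1r57 held 0, that of Vmn1r54 held 6 and that of Vmn1r93 held 4. Vmn1r47, which lies on the opposite strand at chr6:90021638-90021937, had the same 300 bases as Vmn1r48. By gene span plus 1 kb to each side, Vmn1r48 was marked in all 16 lists and Vmn1r47 in 0. A read of 150 bases within these 300 fits both genes, and how such reads were placed is not given in the sources used here. In 14 of 16 lists the highest region of the Vmn1r48 peak lay 1 to 3 kb downstream of the start, outside these 300 bases. The Vmn1r93 promoter was likewise identical to that of Vmn1r114 at chr7:20812137-20812436, and both genes were marked in 0 lists. Motif matches were counted on both strands. The site of Ebf factors, which act in sensory neurons, searched as TCCC and GGGA with any 2 bases between them, was in 0 of 206 receptor promoters and in 0.991% of other promoters. TAATTA, a core site of homeodomain factors, was in 15 receptor promoters (7.28%), in 4.45% of other promoters and in 18.7% of the promoters of odorant receptors (Olfr). These 2 motifs do not overlap in letters, and a match is a string of letters only.

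Most receptors had no peak of either mark at any stage or genotype, which does not show that the marks were absent. A receptor or other gene counted as marked in a list if at least 1 bp of its span, extended by 1 kb to each side, lay under a peak. By that rule 169 of 229 receptors (73.8%) had no peak in any of the 16 lists, against 2406 of 20329 other genes (11.8%). H3K27me3 was present in at least 1 list at 56 receptors and H2AK119ub at 15, of which 4 (Vmn1r3, Vmn1r208, Vmn1r214 and Vmn1r238) had no H3K27me3 in any list. Among the 56, H3K27me3 was in exactly 1 of the 10 lists at 15 receptors, in 6 or more at 13, and in all 10 at 1, Vmn1r48. H2AK119ub was in exactly 1 of 6 lists at 11 of its 15 receptors and in all 6 at 1, again Vmn1r48.

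**Figure D1:**
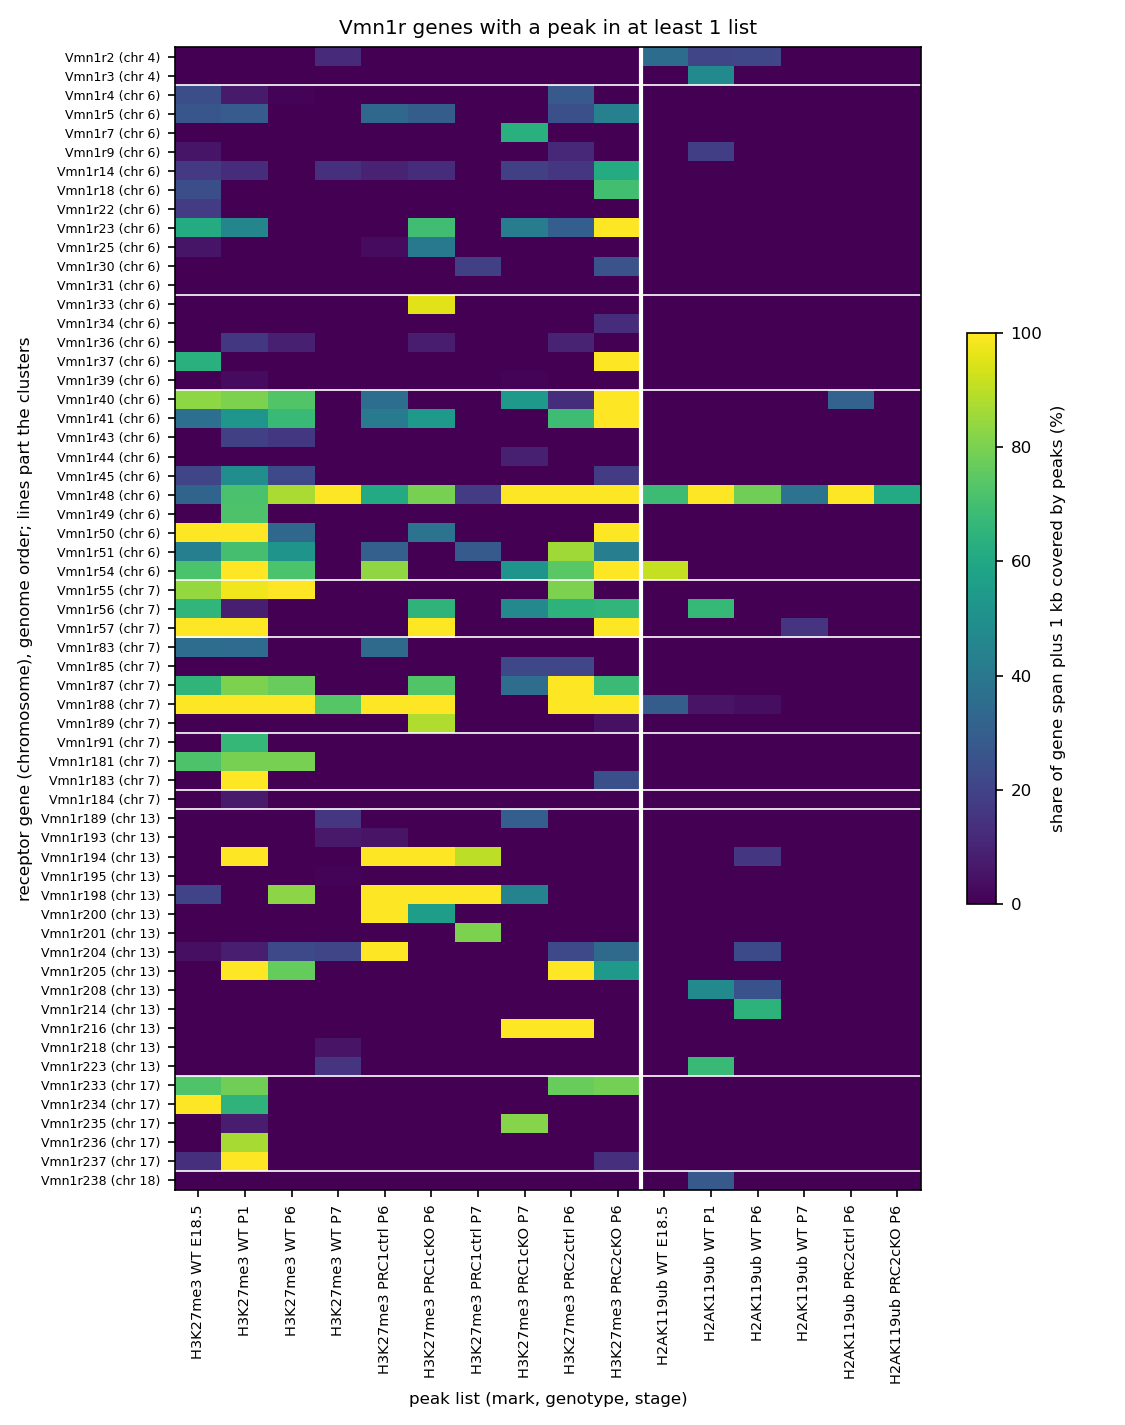
Share of the window (gene span plus 1 kb to each side) covered by peaks, in percent by colour, for the receptors with a peak in at least 1 of 16 lists (rows, in genome order; lines part the clusters) in each list (columns; the vertical line parts H3K27me3 from H2AK119ub). Vmn1r48 is the row with colour in all 16 columns, most other rows are coloured in a few columns, and a few cells cover too little of the window to be told from 0 by eye.

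In WT oocytes H3K27me3 was found at 28 receptors at E18.5, 33 at P1, 17 at P6 and 10 at P7. As shares these were 12.2%, 14.4%, 7.42% and 4.37%, while 46.3%, 45.9%, 48.1% and 50.8% of other genes were marked in the same 4 lists. The receptors thus had their highest count at P1 and their lowest WT count at P7, the stage at which the share of other genes was highest. The order of the first pair depended on the setting, with 23 at E18.5 and 20 at P1 when all lists were held to equal covered length, and 63 at both with 5 kb to each side of the gene. At P7 the count was 3 with the gene span alone, 2 with equal covered length and 24 with 5 kb to each side. Exact Clopper-Pearson 95% intervals, which cover counting error only and treat neighbouring genes as independent although they are not, ran from 10.1% to 19.6% at P1 and from 2.11% to 7.88% at P7.

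In the controls and knockouts, H3K27me3 marked 15 receptors in PRC1ctrl at P6, where 46.7% of other genes were marked, and 18 in PRC1cKO at P6 (46.2%). At P7 it marked 6 receptors in PRC1ctrl (45.5% of other genes) and 15 in PRC1cKO (45%). In PRC2ctrl at P6 it marked 20 receptors (47.3% of other genes) and in PRC2cKO 24 (41.5%). The PRC1ctrl list at P7 was thus the lowest of the 10 for the receptors, although the PRC2cKO list was the lowest for other genes. The PRC1ctrl list at P7 was also the lowest for odorant receptors (13.9%), type 2 vomeronasal receptors (12.3%) and other genes as short (12.6%).

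H2AK119ub marked 4, 9, 7 and 2 receptors over the 4 WT stages from E18.5 to P7, and it marked 76.5%, 67.5%, 73.7% and 57.9% of other genes there. In PRC2ctrl at P6 it marked 2 receptors (66.5% of other genes) and in PRC2cKO 1, Vmn1r48 (64.9%). At other genes H2AK119ub was the more frequent mark, and at the receptors it was the rarer mark in every group with both marks. That order was not particular to the receptors. H2AK119ub was also the rarer mark in each of these groups for odorant receptors, type 2 vomeronasal receptors and other genes as short. At WT E18.5 it marked 8.07%, 14.8% and 10.0% of these 3 sets, and H3K27me3 marked 32.7%, 36.1% and 28.4%.

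The receptors were also marked less often than Vmn2r genes, Olfr genes and other genes as short in every list, but not than the 2 smallest chemoreceptor families throughout. The 172 receptors in the lower 3 quartiles of length had windows of 2870 to 2957 bp, and 134 of them had no peak in any list. Of 729 other genes with windows of that length, 413 (56.7%) had none. Most of these 729 were chemoreceptors too (672), and among the 57 that were not, 19.3% had no peak. Genes without any peak made up 47.5% of the type 2 vomeronasal receptors (Vmn2r, 58 of 122), 54.7% of the odorant receptors (603 of 1103), 45.7% of the bitter taste receptors (Tas2r, 16 of 35) and 75% of the formyl peptide receptors of the Fpr-rs group (3 of 4). In the WT P7 list of H2AK119ub, 0 Tas2r and 0 Fpr-rs genes were marked. Over the 10 H3K27me3 lists, the share of marked receptors was 2.62% to 14.4%, against 12.6% to 28.4% for genes with the same window length, 12.3% to 36.9% for Vmn2r and 13.9% to 32.7% for Olfr. Over the 6 H2AK119ub lists it was 0.437% to 3.93%, against 6.04% to 11.5% for genes with the same window length. Longer receptor genes were marked more often, as 21 of the 57 with longer windows (36.8%) and 35 of the other 172 (20.3%) had H3K27me3 in at least 1 list.

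**Figure D2:**
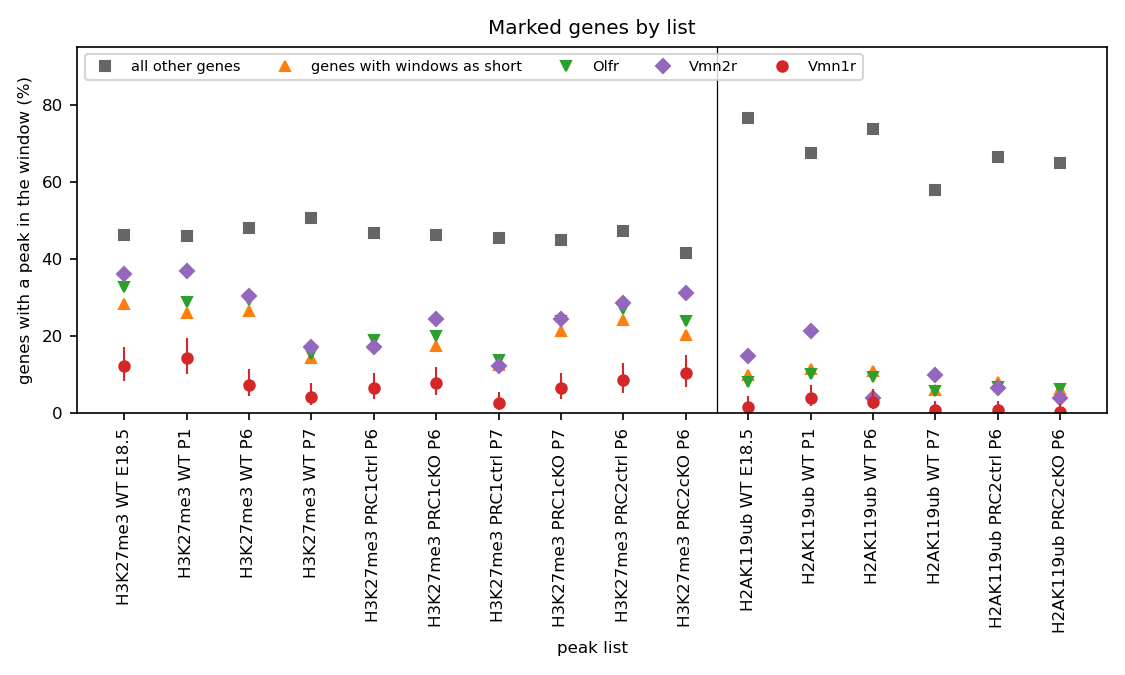
Share of genes with a peak in their window, in percent (vertical axis), in each of the 16 lists (horizontal axis; the vertical line parts H3K27me3 from H2AK119ub), for the 229 Vmn1r genes, the 122 Vmn2r genes, the 1103 Olfr genes, the 729 genes with windows as short and all 20329 other genes. Bars are exact 95% intervals for Vmn1r; the Vmn1r points lie below all other sets in every list, from 0.437% to 14.4%.

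The 229 receptors formed 13 groups when genes no more than 1 Mb apart were joined, and 8 of these held 5 or more receptors. The 3 largest were 86 receptors on chromosome 7 (Vmn1r91 to Vmn1r183, 20101158 to 24055691), 36 on chromosome 13 (Vmn1r188 to Vmn1r223, 22087878 to 23250323) and 28 on chromosome 6 (Vmn1r4 to Vmn1r31, 56923914 to 58472878). The lone receptors Vmn1r1 on chromosome 1 and Vmn1r90 on chromosome 7 had no peak in any list, and Vmn1r238 on chromosome 18 had H2AK119ub in 1 list. Vmn1r2 and Vmn1r3, the pair on chromosome 4, had H2AK119ub in 3 lists and 1 list, and Vmn1r2 had H3K27me3 in 1 list. Vmn1r184 had H3K27me3 in 1 list and its neighbour Vmn1r185 had no peak in any list.

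The largest cluster was nearly free of peaks of either mark. In Vmn1r91 to Vmn1r183, 83 of 86 receptors had no peak in any of the 16 lists. H3K27me3 peaks covered 0.230% to 3.19% of its 3.95 Mb (median 1.61%), while they covered 16.8% to 27.4% of chromosome 7 (median 21.4%). H2AK119ub covered a median of 0.721% of the cluster and 26.6% of the chromosome. The 3 exceptions lay at its ends. Vmn1r91, the first gene, had H3K27me3 in the WT P1 list only. Vmn1r181 had it at E18.5, P1 and P6 in WT oocytes, over 72.2%, 79.6% and 79.6% of its window, and Vmn1r183, the last gene, at P1 and in PRC2cKO. This cluster also held the receptors most alike in sequence: 65 of the 83 with a promoter shared an exact run of 150 bases, the length of the reads per the labels, with another receptor promoter, and their median identity to the closest one was 100%. How reads that fit several copies were treated is not given in the sources used here, and the part of sequence identity in the missing peaks was not tested. Among receptors with such a shared run, 0 of 65 inside the cluster and 4 of 6 outside it had a peak. Among those without one, 3 of 18 inside the cluster (16.7%) and 42 of 117 outside it (35.9%) had a peak. Without this cluster, 57 of 143 receptors (39.9%) had a peak in at least 1 list. Of these 143, 97 had windows of the length given above, and 36 of the 97 (37.1%) had a peak, against 43.3% of other genes with that window length and 40.2% of the chemoreceptors among them. In the single lists the 143, which include the longer genes, had a lower share than genes with the same window length in all 16. For H3K27me3 the shares were nearest at P1 (20.98% and 25.9%) and in PRC2cKO (16.1% and 20.3%), and further apart at WT P6 (11.2% and 26.5%) and in PRC1ctrl at P7 (4.20% and 12.6%). For H2AK119ub they were 1.40% and 8.23% in PRC2ctrl and 0.699% and 6.31% in PRC2cKO.

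**Figure D3:**
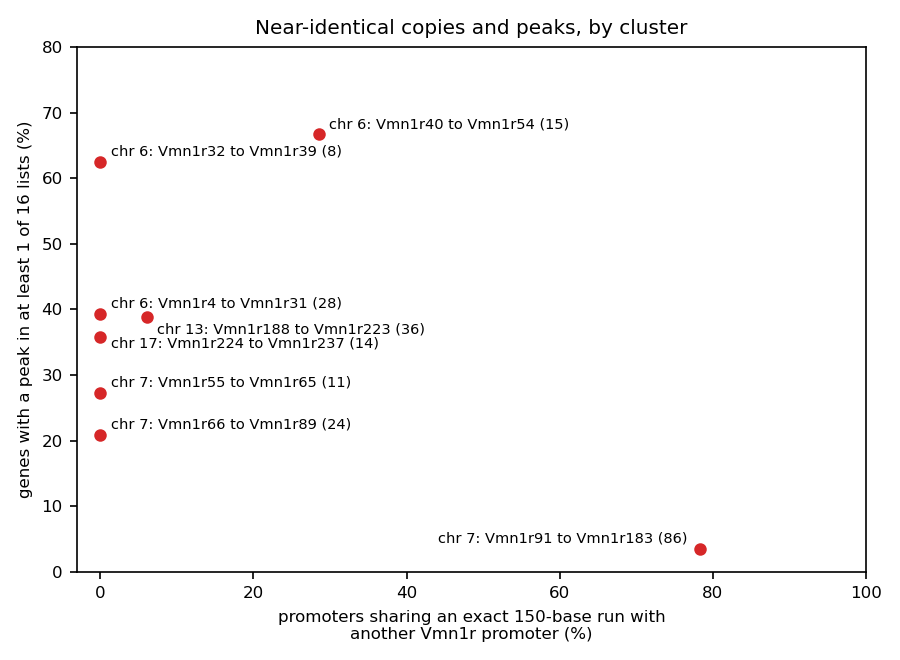
For the 8 clusters of 5 or more receptors (number of genes in brackets), the share of promoters that hold an exact 150-base run of another Vmn1r promoter (horizontal axis, percent) and the share of genes with a peak in at least 1 of 16 lists (vertical axis, percent). The Vmn1r91 to Vmn1r183 cluster lies at 78.3% and 3.49%, while the Vmn1r40 to Vmn1r54 cluster, at 28.6% of promoters with such a run, has the highest share of genes with a peak.

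The cluster of Vmn1r40 to Vmn1r54 on chromosome 6 (89711261 to 90270053) was marked most. H3K27me3 was found at 10 of its 15 receptors in at least 1 list, and 34% of its receptor-by-list calls were positive, against 12.9% in the Vmn1r4 to Vmn1r31 cluster and 0.698% in the largest cluster. The 5 receptors Vmn1r40, Vmn1r41, Vmn1r48, Vmn1r51 and Vmn1r54 of this cluster were among the 13 marked in 6 or more H3K27me3 lists. Marked receptors here numbered 1 to 9 by list (median 5). H3K27me3 covered 4.15% to 29.5% of its span (median 16.5%), a median below the 19.9% of chromosome 6. Another group on chromosome 6, Vmn1r32 to Vmn1r39 (66552183 to 66805332), was covered over 5.10% to 34.1% (median 22.4%). It was the only cluster of 5 or more whose median exceeded that of its chromosome. Of its 8 receptors, 0 to 2 were marked in any 1 list and 5 in at least 1 list, and 12.5% of its receptor-by-list calls were positive. Vmn1r37, with the highest mean cover (10.2%), was marked in 2 lists and Vmn1r36 in 4. H2AK119ub covered 0.729% to 3.83% of the same span.

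**Figure D4:**
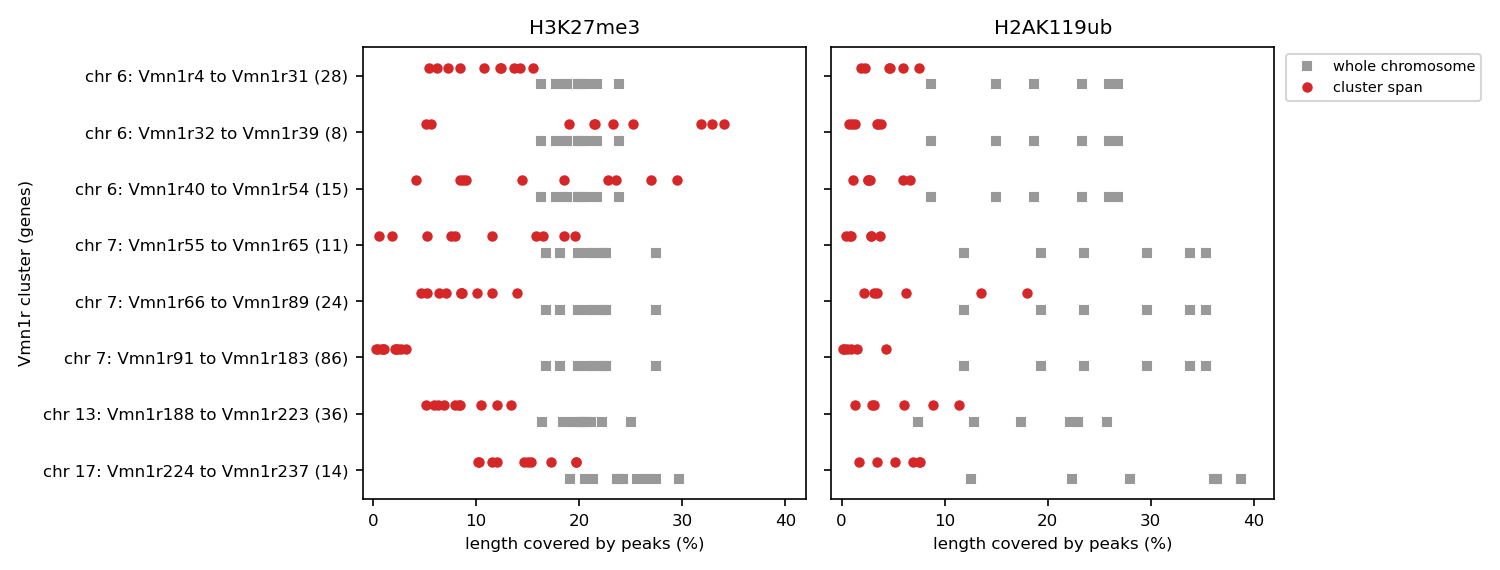
Share of the span of each cluster of 5 or more receptors covered by peaks (red circles, 1 per list) and of its whole chromosome (grey squares), in percent, for the 10 H3K27me3 lists (left) and the 6 H2AK119ub lists (right). The Vmn1r91 to Vmn1r183 cluster lies at 0.230% to 3.19% for H3K27me3, and the Vmn1r32 to Vmn1r39 cluster reaches 34.1%.

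Other clusters had single receptors that stood out by cover. Vmn1r23 had the highest cover of the Vmn1r4 to Vmn1r31 cluster, 21.8% of its window averaged over the 16 lists, with H3K27me3 in 6 lists, although Vmn1r14 was marked in 8. Vmn1r57 had the highest mean cover of the Vmn1r55 to Vmn1r65 cluster (25.9%), with its whole window covered in the WT E18.5, WT P1, PRC1cKO P6 and PRC2cKO P6 lists and no H3K27me3 in the other 6. Its peaks were 24.2, 21.4, 45.1 and 45.4 kb wide, and in both cKO lists 1 peak covered Vmn1r56 as well. On chromosome 13, Vmn1r198 had the highest mean cover (28.0%) with H3K27me3 in 6 lists, and Vmn1r204 was marked in 7. On chromosome 17 (Vmn1r224 to Vmn1r237), Vmn1r233 had the highest mean cover (19.1%) and was marked in 4. Peaks over receptors were otherwise local: of 201 H3K27me3 peaks that reached a receptor window, 198 reached only 1 receptor, with a median width of 4.62 kb and a median total signal at percentile 49.5 of their own list. The signal is the authors' value for each peak and was used only to rank peaks within a list. In the top 10% of their lists stood 9 of the 201.

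Vmn1r48 (chromosome 6, 90035933 to 90036841, minus strand) was marked by both marks in every list. H3K27me3 covered 32.2%, 71.2%, 87.3% and 100% of its window over the WT stages from E18.5 to P7. It covered 61.2% and 79.4% in PRC1ctrl and PRC1cKO at P6, 17.7% and 100% in the same genotypes at P7, and 100% in both PRC2ctrl and PRC2cKO. H2AK119ub covered 68.5%, 100%, 78.1% and 38.2% of it over the 4 WT stages, 100% in PRC2ctrl and 61.2% in PRC2cKO. The PRC1ctrl list at P7 was the lowest, and no control and knockout pair moved from marked to unmarked. The peaks were 2.13 to 20.3 kb wide, at percentile 7.54 to 95.2 of their lists by total signal. The middle of their highest region lay 1 to 3 kb downstream of the gene's start in 14 of 16 lists, beyond the end of the 909-bp gene. The stretch that all 16 lists had in common was chr6:90033566-90035446, which ends 0.487 kb from the gene, between Vmn1r48 and Vmn1r47.

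Most stretches common to all lists of a mark lay outside the receptor windows. Within the 13 groups, 22 stretches were covered in all 10 H3K27me3 lists (310 to 6942 bp long, median 2324 bp). None of the 22 touched a receptor gene and 1, at Vmn1r48, lay within 1 kb of one, and the distance to the nearest receptor was 0.487 to 339 kb (median 15.6 kb). For H2AK119ub, 19 stretches were covered in all 6 lists, at a median of 77.7 kb from a receptor, and 1 of them, chr6:90033290-90036042, reached into Vmn1r48. An annotated RefSeq gene of any kind overlapped 7 of the 22 H3K27me3 stretches and 12 of the 19 H2AK119ub stretches. A protein-coding gene overlapped 1 of the former and 8 of the latter. Vmn1r88 (chromosome 7, 13177719 to 13178669) lay 1.98 kb from one of the H3K27me3 stretches, chr7:13172417-13175736, which touches the noncoding gene Gm38946. Its window was covered over 100%, 100%, 100% and 73.8% in the WT lists and over 100% in PRC1ctrl and PRC1cKO at P6, PRC2ctrl and PRC2cKO, but over 0 in PRC1ctrl and PRC1cKO at P7. H2AK119ub covered 29.7%, 5.15% and 3.77% of it in WT oocytes at E18.5, P1 and P6. Vmn1r204 on chromosome 13 lay 1.61 kb from another H3K27me3 stretch, and Vmn1r30 on chromosome 6 lay 3.27 kb from a further one. Only 3 stretches were common to all 16 lists, and all 3 were on chromosome 6. They were the one beside Vmn1r48, another at chr6:90231694-90233872, 7.26 kb from Vmn1r53 and over the pseudogene Gm20426, and one at chr6:66654528-66656157, 16.8 kb from Vmn1r34.

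**Figure D5:**
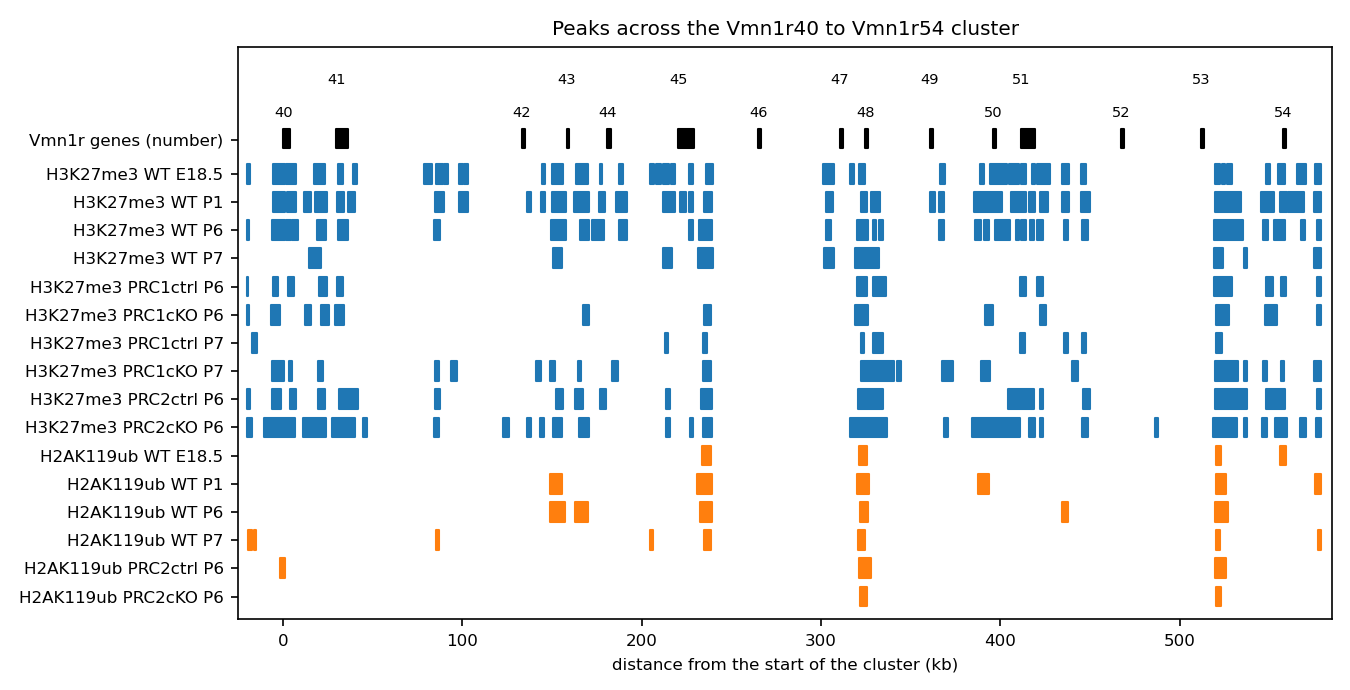
Peaks of the 16 lists (rows; H3K27me3 in blue, H2AK119ub in orange) along the Vmn1r40 to Vmn1r54 cluster, with distance from its start in kb on the horizontal axis and the 15 receptor genes in black on top (numbers are the Vmn1r numbers; genes are drawn at least 1.5 kb wide). Peaks of all 16 lists line up just left of Vmn1r48 and to the right of Vmn1r53.

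In WT oocytes fewer receptors had H3K27me3 at each stage after P1. A gene is called lost when it was marked in the first list of a pair and unmarked in the second, and gained in the opposite case. The lost and gained shares of other genes are over the whole background of 20329, of which 729 had the same window length. Neither share was computed for those 729, Olfr or Vmn2r genes alone. From E18.5 to P1, 6 of 28 receptors were lost (21.4%, against 7.6% of marked other genes) and 11 were gained (5.47% of the unmarked, against 5.7%). Vmn1r37, Vmn1r18 and Vmn1r198 lost the most covered length, 1.84, 0.696 and 0.580 kb. Vmn1r205, Vmn1r183 and Vmn1r194 gained 2.95, 2.92 and 2.89 kb, which was their whole window. From P1 to P6, 17 of 33 receptors were lost (51.5%, against 7.73% of other genes) and 1, Vmn1r198, was gained (0.510%, against 10.7%). Vmn1r5, Vmn1r57 and Vmn1r183 lost 5.16, 2.93 and 2.92 kb. The net change was -16 for the receptors and 453 for other genes. Between the same 2 lists the count was 45 and 37 for Vmn2r, 318 and 323 for Olfr, and 189 and 193 for genes with the same window length.

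From P6 to P7, which compares non-growing with growing WT oocytes, 14 of 17 receptors were lost (82.4%, against 11.7% of other genes) and 7 were gained (3.30%, against 16%). The largest losses, of 5.79, 5.17 and 4.28 kb, were at Vmn1r41, Vmn1r51 and Vmn1r40, all in the Vmn1r40 to Vmn1r54 cluster. The largest gains were at Vmn1r14, Vmn1r223 and Vmn1r189 and were small, 1.43, 0.472 and 0.468 kb. The median covered share of the marked receptors' windows was 71.7% at P6 and 14.7% at P7. The net change was -7 for the receptors and 542 for other genes. Like gene sets were also marked less often at P7 than at P6, with 323 and 171 Olfr genes (29.3% and 15.5%), 37 and 21 Vmn2r genes (30.3% and 17.2%) and 193 and 105 genes with the same window length (26.5% and 14.4%). These pairs share the P1 and P6 lists, so their counts are not independent. PRC1ctrl oocytes also had fewer marked receptors at P7 than at P6, with 11 of 15 lost (73.3%, against 16.1%) and 2 gained (0.935%, against 11.9%). There Vmn1r5, Vmn1r41 and Vmn1r88 lost 6.05, 3.52 and 2.95 kb, and Vmn1r201 and Vmn1r30 gained 2.33 and 2.04 kb. In the PRC1cKO lists the count was 18 at P6 and 15 at P7. There 12 were lost (66.7%, against 13.9%) and 9 gained (4.27%, against 9.76%).

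H2AK119ub differed between stages at few receptors. From E18.5 to P1, 1 of 4 was lost (25%, against 14.8% of other genes), Vmn1r54, and 6 were gained (2.67%, against 9.88%), with the longest gains at Vmn1r56, Vmn1r223 and Vmn1r3 (2.57, 2.08 and 1.40 kb). From P1 to P6, 5 of 9 were lost (55.6%, against 5.04%), led by the same 3 genes, and 3 were gained (1.36%, against 29.5%), Vmn1r214, Vmn1r204 and Vmn1r194. From P6 to P7, 6 of 7 were lost (85.7%, against 24.9%), led by Vmn1r214, Vmn1r208 and Vmn1r204, and 1 was gained (0.450%, against 9.92%), Vmn1r57. The WT P7 H2AK119ub list covered the shortest length of all 16, 244.2 Mb, and its part in that loss was not tested.

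Of the 206 receptor promoters, 10, 18, 8 and 1 were touched by an H3K27me3 peak over the WT stages from E18.5 to P7. Of other promoters 29.4%, 30.3%, 33.1% and 37.4% were touched. H2AK119ub touched 2, 3, 1 and 0 receptor promoters over the same stages, against 62.7%, 49.4%, 53.3% and 36.0% of other promoters.

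Both marks were present at 3 receptors each at E18.5, P1 and P6 in WT oocytes and at 1 at P7. Vmn1r48 was among them at every stage and Vmn1r88 at the first 3. If the marks had been placed independently of each other, the 4 counts would be 0.489, 1.30, 0.520 and 0.0873. Other genes also had both marks more often than that at each stage. Their counts were 8396, 8280, 8917 and 8934, where independent marks would give 7206, 6294, 7206 and 5981. Of the receptors with H2AK119ub, 33.3% to 75% also had H3K27me3 in the WT lists, against 54.0% to 75.8% of other genes with H2AK119ub. Of the receptors with H3K27me3, 9.09% to 17.6% also had H2AK119ub, against 86.6% to 91.2% of other genes, but with 2 to 9 H2AK119ub receptors in a list that share could not be high. In PRC2ctrl the pair was at Vmn1r40 and Vmn1r48 (independent marks would give 0.175), and in PRC2cKO at Vmn1r48 (0.105).

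In the PRC1 comparison at P6, 6 of 15 receptors were lost from control to knockout (40%, against 9.5% of other genes) and 9 were gained (4.21%, against 7.38%). Vmn1r51, Vmn1r204 and Vmn1r54 lost 3.08, 2.91 and 2.46 kb, and Vmn1r57, Vmn1r33 and Vmn1r89 gained 2.93, 2.79 and 2.60 kb. At P7, 4 of 6 were lost (66.7%, against 15.4%) and 13 were gained (5.83%, against 12%). Vmn1r51, Vmn1r194 and Vmn1r201 lost 2.85, 2.60 and 2.33 kb, and Vmn1r235, Vmn1r40 and Vmn1r216 gained 3.63, 3.17 and 2.90 kb. The net change at P7 was thus 9 for the receptors, from 6 to 15, and -93 for other genes. Between these P7 lists the count was also higher in the knockout for Olfr (153 and 263, or 13.9% and 23.8%), Vmn2r (15 and 30, or 12.3% and 24.6%) and genes with the same window length (92 and 156, or 12.6% and 21.4%).

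In the PRC2 comparison at P6, H3K27me3 was lost at 6 of 20 receptors (30%, against 16% of other genes) and gained at 10 (4.78%, against 3.47%). Vmn1r4, Vmn1r216 and Vmn1r55 lost 9.93, 2.90 and 2.35 kb, and Vmn1r50, Vmn1r57 and Vmn1r37 gained 2.93, 2.93 and 2.91 kb. The net change was 4 for the receptors and -1166 for other genes, while the 3 control lists of that stage held 17, 15 and 20 marked receptors. From PRC2ctrl to PRC2cKO the count was 35 and 38 for Vmn2r (28.7% and 31.1%), 299 and 265 for Olfr (27.1% and 24.0%) and 176 and 148 for genes with the same window length (24.1% and 20.3%). The mean covered share of the windows was 4.92% in PRC2ctrl and 6.63% in PRC2cKO for the receptors, and 26.5% and 20.4% for other genes. H2AK119ub went from 2 receptors to 1, with Vmn1r40 lost (50%, against 9.62% of other genes) and 0 gained (against 14.4%).

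Controls of 1 stage differed from each other about as much at the receptors as controls and knockouts did. Between the WT and PRC1ctrl lists at P6, 9 of 17 receptors were marked in the first alone (52.9%, against 9.25% of other genes). In the second alone 7 were marked (3.30% of those unmarked in the first, against 5.90%). Between WT and PRC2ctrl at P6 these counts were 5 (29.4%, against 6.94%) and 8 (3.77%, against 4.82%). Between PRC1ctrl and PRC2ctrl they were 6 (40%, against 7.68%) and 11 (5.14%, against 7.76%). Between WT and PRC1ctrl at P7 they were 9 (90%, against 13.4%) and 5 (2.28%, against 3.06%). For H2AK119ub between WT and PRC2ctrl at P6 they were 6 (85.7%, against 13.1%) and 1 (0.450%, against 9.29%). These controls differ in genotype, so the counts are not replicate error. The 3 control lists at P6 had 7 marked receptors in common, namely Vmn1r40, Vmn1r41, Vmn1r48, Vmn1r51, Vmn1r54, Vmn1r88 and Vmn1r204. PRC2cKO had all 7, and PRC1cKO had Vmn1r41, Vmn1r48 and Vmn1r88. Conversely 8 receptors were marked in PRC2cKO and in none of the 3 controls, and 4 in PRC1cKO and in none, with Vmn1r57 and Vmn1r89 in both sets. At P7 the WT and PRC1ctrl lists shared Vmn1r48 alone, and 11 receptors were marked in PRC1cKO and in neither control.

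Genes that build and signal for a vomeronasal neuron were mostly marked. As background, 30.5% of the 20329 other genes had H3K27me3 in all 10 lists and 49.0% had H2AK119ub in all 6. Of 20 signalling genes, 16 had H3K27me3 in all 10 lists and 19 had H2AK119ub in all 6. Those in all lists of both marks included Trpc2, the channel that opens on receptor activation, Omp, the olfactory marker protein, and Gng8, a G protein subunit. Gnb1, a G protein subunit used in most cells, had no H3K27me3 in any list. Gnai2, the G protein partner of these receptors, had H3K27me3 in 6 lists. Of 17 transcription factors of the lineage, 13 had H3K27me3 in all 10 lists, among them Neurog1, which acts early in the neuronal lineage, and Bcl11b, which acts in the choice of receptor class. Atf5, Cebpg and Ldb1 had none. Of 9 axon guidance genes, 8 had H3K27me3 in all 10 lists, among them Nrp2, a receptor of these axons. Many of these genes are long, and a long gene is more easily marked by the rule of 1 bp. Kcnj3, a potassium channel gene, and Robo2, an axon guidance receptor gene, were marked in all 10 lists with H3K27me3 over at most 13.8% and 25.4% of their windows.

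The lists covered 244.2 to 728.3 Mb with 49615 to 83994 peaks, and read depth is unknown from these files. As a check of the oocyte label, 0 of 7 oocyte genes had H3K27me3 in the WT P6 and P7 lists, but 4 had it at E18.5, 3 at P1, and 2 in each of PRC1ctrl and PRC1cKO at P6. Among them Zp3, an egg coat protein gene, was covered over 100% and 91.6% at E18.5 and P1. Ddx4 alone had it in PRC1cKO at P7 and in PRC2ctrl and PRC2cKO at P6. In contrast, Figla and Dazl had H3K27me3 in no list, and 3 of 4 granulosa cell genes had it in all 10. H2AK119ub was less selective, at 7, 4, 6 and 3 oocyte genes over the WT stages from E18.5 to P7. It was at 5 oocyte genes in PRC2ctrl and 4 in PRC2cKO, with Dazl in all 6 lists and Figla in 5. All 4 granulosa cell genes had H2AK119ub in all 6 lists. Of the blood markers, Ptprc had H3K27me3 in 9 lists and Hbb-bt in 7.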

How the data were processed

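H3K27me3 and H2AK119ub were profiled by CUT&Tag in 32 samples of mouse oocytes, in 16 groups of 2, with reads of 150 bp and a spike-in of Drosophila S2 cells, per the labels' protocols. The submitters' processing notes list, with no roles, SAMtools, deepTools, Bowtie2, Trim Galore 0.6.10 and Picard 3.0.0, and as builds mm10, GRCm38 and dm6. Not given in the sources used here are the peak caller, its threshold, the handling of reads with several best places and the joining of the 2 samples of a group. For each group the authors deposited 1 list of peaks with no header, and, judged from the values, its signal column is a whole-number total for each peak, in an unknown scaling. Lists were matched to groups by the shared part of the sample titles. Nothing says whether the 2 samples of a group came from separate animals.

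Covered lengths were computed with Python 3.11.15, pandas 2.3.3 and numpy 2.4.6, and the code was tested on simulated data (2000 windows, 0 wrong). Genes came from RefSeq GRCm38.p6. Of 20665 autosomal protein-coding genes, 107 that start below 3 Mb or are listed among unplaced sequences were left out, since the lowest autosomal peak began at position 2999981. Intervals are exact Clopper-Pearson (scipy 1.17.1). The receptors, the pathway and marker lists and the comparison families were chosen with earlier results of these data known. Receptors named by rule were those marked in all lists of a mark, the 3 with the largest loss and the 3 with the largest gain of covered length in each of 11 comparisons, the receptor of highest mean cover in each cluster of 5 or more, and lone receptors. Other receptors and pathway genes were named after their values were seen, because a sequence, a boundary or a count turned on them. Alternatives were other windows, a minimum cover, lists trimmed to equal numbers of peaks or equal covered length, a smaller gap between clusters, and leaving out the WT P7 H2AK119ub list, which was added after seeing the data, as were the 5 other alternatives for the count of receptors without a peak.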

Additional observations from a re-analysis of the deposited data

How the results depend on the processing

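Of 62 recomputed values of net changes, groups and receptors without a peak, 35 stayed within 1.5 times the value reported, 24 moved further and 3 changed sign. Counts of marked receptors by list are not among the 62 and also depended on the setting. For H3K27me3 they were 6 to 33 over the lists, 18 to 63 with 5 kb to each side and 2 to 20 with at least 50% covered. For H2AK119ub they were 1 to 9, 2 to 27 and 0 to 3. The count of receptors without any peak (169) ranged from 127 with 5 kb to each side to 193 when at least 50% of the window had to be covered. Net changes of receptors marked (main values in brackets) were as follows. With the gene span alone, H2AK119ub gave 2 from WT E18.5 to P1 (5) and -1 from P6 to P7 (-5). With 5 kb to each side, H3K27me3 gave 0 from WT E18.5 to P1 (5), -19 from P6 to P7 (-7), -21 in PRC1ctrl from P6 to P7 (-9), 10 and 22 from PRC1ctrl to PRC1cKO at P6 and P7 (3 and 9) and 8 from PRC2ctrl to PRC2cKO (4), and H2AK119ub gave -7 from WT P1 to P6 (-2) and -8 in PRC2cKO (-1). With at least 50% covered, H3K27me3 gave -9 from WT P1 to P6 (-16), -4 in PRC1ctrl from P6 to P7, and 5 and 3 in the PRC1 comparisons at P6 and P7, and H2AK119ub gave 1, -1 and -2 over the WT stages and 0 in PRC2cKO. With equal numbers of peaks, H3K27me3 gave 2 from WT E18.5 to P1. With equal covered length, H3K27me3 gave -3 from WT E18.5 to P1, a change of sign, -9 from P1 to P6, -3 in PRC1ctrl from P6 to P7 and 13 in PRC2cKO, and H2AK119ub gave 1 and -1 over the first WT steps, and 2 from P6 to P7 and 1 in PRC2cKO, both changes of sign; the cause was not tested. The negative sign of H3K27me3 from P1 to P6 and from P6 to P7 and the positive sign in both PRC1 comparisons and in PRC2cKO stood under all 5 of these settings. A gap of 250 kb gave 18 groups of receptors in place of 13. No paired analysis was possible because each group has 1 peak list, so replicate numbers occur in no list, and for the same reason no replicate could be left out. Peak thresholds differed between lists, with a lowest total signal of 3754 to 20369, and depth is unknown, so a receptor without a peak is not shown to lack the mark.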

Other observations

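Pseudogenes of the same family, which encode no working receptor, also mostly lacked peaks. RefSeq gave 137 placed autosomal Vmn1r pseudogenes, and 91 of them (66.4%) had no peak in any list, against 73.8% of the 229 receptors. With H3K27me3 they were marked in 15, 16, 9 and 9 cases over the WT stages from E18.5 to P7, which is 10.9%, 11.7%, 6.57% and 6.57%. In PRC1ctrl they were marked in 5 cases at P6 and 7 at P7, in PRC1cKO in 9 and 15, in PRC2ctrl in 10 and in PRC2cKO in 11. With H2AK119ub they were marked in 7, 9, 6 and 1 cases over the WT stages, in 1 in PRC2ctrl and in 0 in PRC2cKO. The pseudogenes differed from the receptors in having equal counts in the WT lists at P6 and P7, and a count in PRC1ctrl that was not lower at P7 than at P6, with no test of either.

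Promoter CpG was low in receptors with a peak and in those without. The median was 1 CpG at the 49 receptors with a promoter and a peak in any list and 2 at the 157 without, and GC content was 35.7% and 36%. By position, the median was 2 CpG over the 83 promoters of the Vmn1r91 to Vmn1r183 cluster, which nearly all lacked a peak. It was 1 over the 123 promoters outside that cluster. The nearest gene outside the family lay at a median of 90.7 kb from those with H3K27me3 in at least 1 list and 98.8 kb from the rest.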
